A study of Mus musculus with 48 samples.

Results

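Gastrocnemius muscle of male Cyp2b-null mice given 10 mg/kg/day of PFOS was compared with that of males of the same genotype at 0 mg/kg/day. All genes of the deposited count table were used. PFOS is perfluorooctane sulfonate, a persistent fluorinated surfactant, and Cyp2b-null mice lack the mouse Cyp2b genes, which encode drug-metabolising enzymes of the liver. The comparison rests on 7 of the 48 RNA-seq libraries of the series: 4 males at 0 mg/kg/day and 3 males at 10 mg/kg/day, chosen by their labels for genotype, sex and dose. All animals were dosed by oral gavage for 21 days, and the muscle was snap frozen after euthanasia. The other libraries are the 4 Cyp2b-null males at 1 mg/kg/day, Cyp2b-null females with 4 animals at each dose, and hCYP2B6-Tg mice, which carry a human CYP2B6 transgene. The hCYP2B6-Tg groups hold 5 males at 0 and 4 at each other dose, and 4 females at each dose. The animals' age, the promoter of the transgene and the strain background are given by none of the sources used. The labels do not say more than that each library is a separate replicate. The p-values rest on the spread between libraries within groups, estimated over all 48 libraries.

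The gastrocnemius is a calf muscle of mostly fast, glycolytic fibres, with slow and oxidative fibres in its deeper part. Muscle mass is set by the balance of protein synthesis, driven by insulin and growth factor signalling, and protein breakdown by the proteasome and by autophagy. When insulin signalling is low or glucocorticoid hormones are high, FOXO transcription factors and the glucocorticoid receptor switch on muscle ubiquitin ligases. PFOS is best known in liver, where it acts on the nuclear receptors PPAR-alpha and CAR.

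The 7 libraries held between 13277029 and 19921061 counts assigned to genes, and replicate 3 at 10 mg/kg/day was the deepest of all 48. Counts-per-million values (CPM) below are scaled by TMM factors, and fold changes come from edgeR's quasi-likelihood test on all 48 libraries with Benjamini-Hochberg adjustment over 15583 genes, called at an adjusted p under 0.05. The extraction text in the labels names liver tissue, while the tissue label is gastrocnemius. In all 7 libraries the muscle creatine kinase gene Ckm stood between 11833 and 16267 CPM and the serum albumin gene Alb at no more than 16.4 CPM. Cyp2b9, Cyp2b10 and Cyp2b13 had 0 counts in the 7 libraries and at most 10, 5 and 0 counts in any library of the series, so they did not check the genotype in this tissue. The 10 Cyp2b9 counts lay in replicate 2 of the males at 1 mg/kg/day, and the 5 Cyp2b10 counts in replicate 4 of the females at 10 mg/kg/day, both Cyp2b-null. That male library also held 27859 Alb counts and a liver marker sum of 3189 CPM, against 3.34 to 10.9 CPM in the other males at its dose. Library numbers in the labels did not overlap between doses in Cyp2b-null males, being lowest at 0 and highest at 10 mg/kg/day, so dose and library number cannot be told apart. In bulk muscle, fewer cells of a type and less RNA per cell cannot be told apart either.

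At 10 mg/kg/day, the ubiquitin ligase genes Trim63 and Fbxo32 and many genes of cytosolic protein synthesis were higher. Most genes of mitochondrial respiration and 8 of the 14 collagen genes of the matrix list were lower. Of 15583 genes tested, 2463 were called, or 15.8%. They divided into 1161 higher (7.45%) and 1302 lower (8.36%) at 10 mg/kg/day. Changes of at least 2-fold were called for 224 genes higher (1.44%) and 385 lower (2.47%). The 10 mg/kg/day libraries lay wholly above the controls for 2232 genes (14.3%) and wholly below them for 2168 (13.9%), and 2333 of the 2463 called genes were among these in the same direction. The median log2 fold change of all tested genes was 0.000568 and the median of its size was 0.30, against a median standard error of 0.23. Without replicate 3 at 10 mg/kg/day, 1400 genes were called, 1361 of them among the 2463. Of the 2463, 2 had a fold change of the opposite sign at that setting, counted whether or not they were called there. On library totals without TMM factors, 69.2% of called genes were higher instead of 47.1%, and the median over all genes shifted by 0.14.

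**Figure D1:**
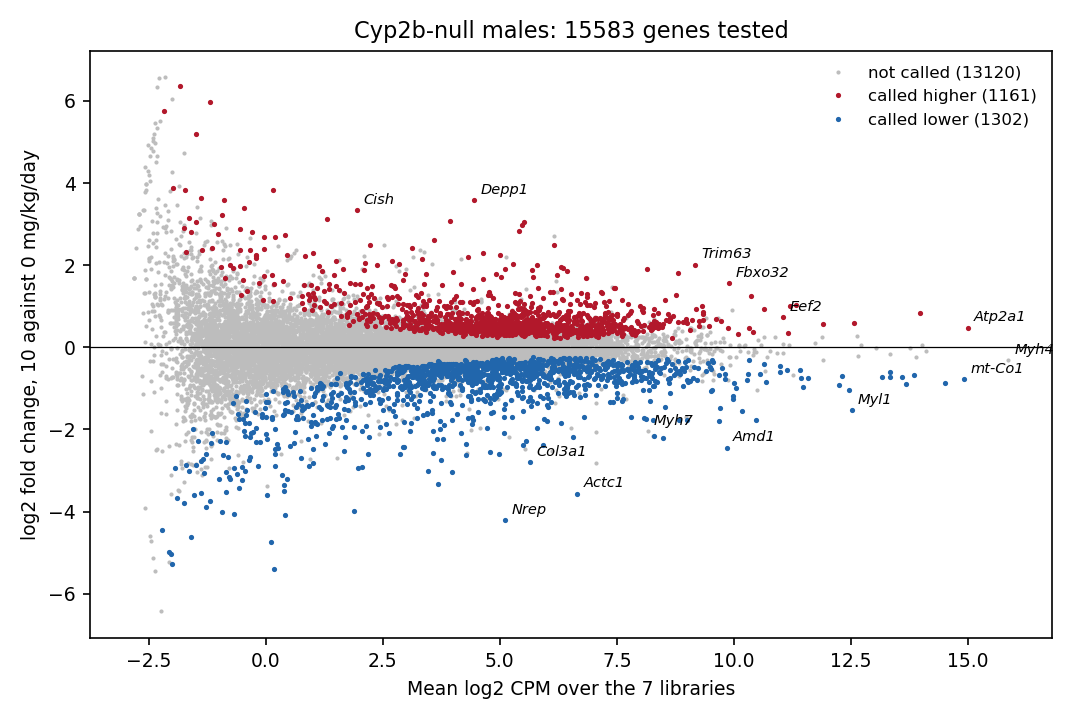
Fitted log2 fold change of 10 against 0 mg/kg/day (vertical axis) against mean log2 CPM over the 7 Cyp2b-null male libraries (horizontal axis), 1 point per tested gene, with called genes coloured. Called genes lie on both sides of 0, 1161 above and 1302 below.

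The largest rises included stress-induced and signalling genes. Depp1, which encodes a FOXO-induced regulator of autophagy and peroxisomes, had 8.94, 3.80, 13.8 and 7.79 CPM in the 4 controls and 117.03, 158 and 32.0 CPM at 10 mg/kg/day. The groups did not overlap, although replicate 3 at 10 mg/kg/day was well below the other 2, and the log2 fold change was 3.58 ± 0.61 (SE, adjusted p = 7.9e-05, edgeR). Arhgap26, which encodes a GTPase-activating protein, had 6.79, 7.53, 4.08 and 6.81 CPM in controls and 38.7, 37.7 and 82.7 CPM at 10 mg/kg/day. All 3 treated libraries were far above all 4 controls, with a log2 fold change of 3.07 ± 0.27 (adjusted p = 7.5e-10, edgeR). Pik3r1, the p85-alpha regulatory subunit of phosphoinositide 3-kinase, had 37.5, 33.4, 35.2 and 29.7 CPM in controls and 166, 183.6 and 227 CPM at 10 mg/kg/day. Its groups were tight and well apart, with a log2 fold change of 2.50 ± 0.27 (adjusted p = 5e-08, edgeR).

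Ddit4, also called REDD1, an inhibitor of mTORC1, had 17.6, 11.9, 22.3 and 29.1 CPM in controls and 275, 131.2 and 70.1 CPM at 10 mg/kg/day. Cebpd, a transcription factor of the acute phase response, had 20.5, 9.13, 30.0 and 24.1 CPM in controls and 207, 190.2 and 46.8 CPM at 10 mg/kg/day. In both genes the groups were separate, and replicate 3 was the lowest of the treated libraries. The log2 fold changes were 2.97 ± 0.67 for Ddit4 (adjusted p = 0.0016) and 2.82 ± 0.55 for Cebpd (adjusted p = 0.00033), both by edgeR. Cdkn1a, the cell cycle inhibitor p21, had 25.8, 10.1, 19.9 and 11.8 CPM in controls and 85.6, 76.2 and 79.8 CPM at 10 mg/kg/day, with no overlap and a log2 fold change of 2.25 ± 0.41.

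Genes of cytokine signalling stood among the same rises. Il6ra, the interleukin-6 receptor, had 7.29, 3.14, 7.69 and 4.54 CPM in controls and 29.5, 36.5 and 38.9 CPM at 10 mg/kg/day, a log2 fold change of 2.62 ± 0.51. Cish, a feedback inhibitor of JAK-STAT signalling, had 1.20, 0.438, 3.77 and 1.74 CPM in controls and 39.7, 8.14 and 6.51 CPM at 10 mg/kg/day. Its call rested on 1 library: the log2 fold change was 3.34 ± 0.81 (adjusted p = 0.0034, edgeR), and without replicate 1 at 10 mg/kg/day it was 2.04 with an adjusted p of 0.12. Socs2, another inhibitor of cytokine signalling, rose by a log2 fold change of 2.14 ± 0.51. The remaining large rises were Igfn1 (3.05), a sarcomere Z-disc protein, the orphan nuclear receptor Nr4a3 (2.50), Cdhr3 (2.30), a cadherin, Tmem100 (2.29), a membrane protein, Inmt (2.21), a methyltransferase, and Rassf4 (2.09), a Ras-association protein, all as log2 fold changes.

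The largest fall was in Nrep, which encodes a small neuronal and regeneration-related protein. It had 130.95, 125.2, 86.5 and 143.3 CPM in controls and 6.83, 6.43 and 6.37 CPM at 10 mg/kg/day, a log2 fold change of -4.21 ± 0.50 (adjusted p = 2.2e-07, edgeR). The 3 treated libraries were nearly equal and far under the lowest control. Actc1, the cardiac alpha-actin that skeletal muscle uses during development and regeneration, had 319.9, 381, 318 and 196 CPM in controls and 18.6, 40.5 and 18.02 CPM at 10 mg/kg/day. Its log2 fold change was -3.56 ± 0.91 (adjusted p = 0.0051, edgeR), with a wide standard error although the groups did not overlap. Ostn, the muscle-secreted peptide musclin, had 26.0, 39.0, 36.0 and 37.7 CPM in controls and 3.93, 4.92 and 1.80 CPM at 10 mg/kg/day, a log2 fold change of -3.32 ± 0.73.

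Foxo6os, an RNA gene on the opposite strand beside the FOXO family gene Foxo6, had 11.0, 9.13, 13.0 and 13.5 CPM in controls and 0.445, 1.44 and 0.396 CPM at 10 mg/kg/day. Foxo6 itself had 6.21, 7.23, 4.69 and 7.41 CPM in controls and 1.41, 1.16 and 0.835 CPM at 10 mg/kg/day. Both fell without overlap between the groups, by log2 fold changes of -3.98 ± 0.51 and -2.51 ± 0.43, and their annotated exons do not overlap. Other large falls were Kcng4 (-3.03), a modifier subunit of potassium channels, Cacna2d4 (-2.94), a calcium channel subunit, Dupd1 (-3.01), a muscle phosphatase, Arnt2 (-2.82), a partner of the hypoxia and aryl hydrocarbon transcription factors, the integrin subunit Itgb6 (-2.74), the mitochondrial outer membrane protein Gdap1 (-2.62) and the insulin receptor adaptor Grb14 (-2.60), as log2 fold changes.

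**Figure D2:**
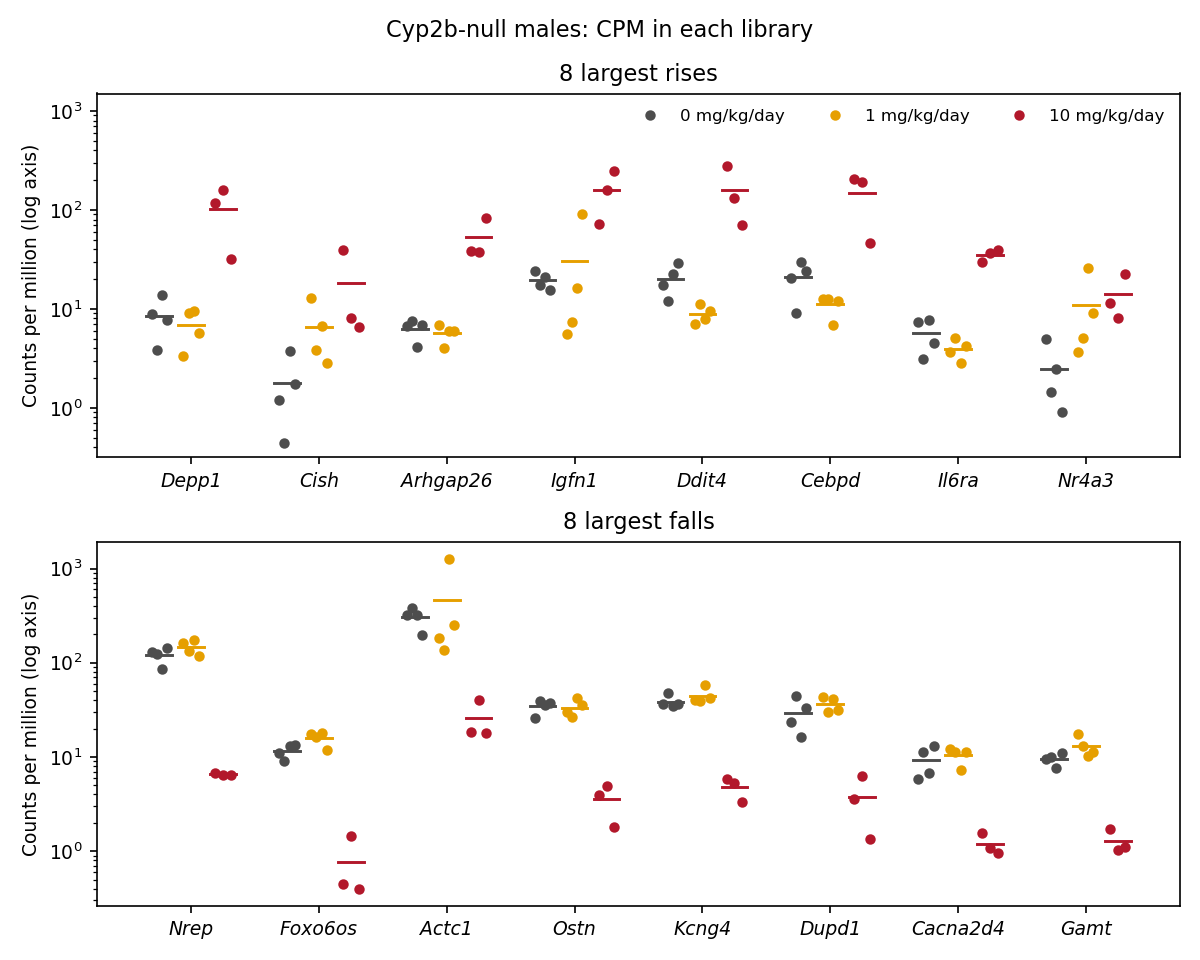
Normalised CPM (log axis) of leading genes in each library of the Cyp2b-null males at 0, 1 and 10 mg/kg/day, 1 point per library with a line at each group's mean, for the 8 largest rises (top) and the 8 largest falls (bottom). Nrep sits between 86.5 and 143.3 in controls and between 6.37 and 6.83 at 10 mg/kg/day, and Arhgap26 between 4.08 and 7.53 against 37.7 to 82.7.

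The same genes were also described in the libraries at 1 mg/kg/day, without a test against the controls. They had been selected for the gap between 0 and 10 mg/kg/day. Of the 15 largest rises and 15 largest falls, 29 had a mean CPM at 1 mg/kg/day nearer to the 0 than to the 10 mg/kg/day mean CPM. Nearness was taken in CPM and not in log2 CPM, which for a rise favours the 0 mean. In 27 of these 30 genes the 1 mg/kg/day libraries overlapped the controls. In 26 of the 30, every 1 mg/kg/day library lay on the control side of the 10 mg/kg/day libraries. Without replicate 2 at 1 mg/kg/day, the library with liver transcripts, these counts were 28, 27 and 26, a check added after the data were seen. The exceptions to the last count were Cish, Igfn1, Nr4a3 and Socs2, and the genes whose 1 mg/kg/day libraries did not overlap the controls were Ddit4, Arnt2 and Socs2. Ddit4 at 1 mg/kg/day was below the controls, with 7.02, 11.3, 7.90 and 9.61 CPM, while at 10 mg/kg/day it was above them.

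The atrophy genes and FOXO targets formed a group with many members higher. Of 30 tested, 16 were called higher and 1 lower, against 7.45% and 8.36% of all genes, with a median log2 fold change of 0.89. The muscle RING-finger ubiquitin ligase Trim63 (MuRF1), which marks myofibrillar proteins for breakdown, had 378, 273, 302 and 333 CPM in controls and 1383, 1498 and 1007 CPM at 10 mg/kg/day. The F-box ubiquitin ligase gene Fbxo32 (atrogin-1) had 642, 657, 509 and 613 CPM in controls and 1872, 2153 and 1330.2 CPM at 10 mg/kg/day. Neither gene's groups overlapped, and the log2 fold changes were 2.01 ± 0.47 for Trim63 (adjusted p = 0.0025) and 1.56 ± 0.38 for Fbxo32 (adjusted p = 0.0035), both by edgeR.

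Eda2r, the ectodysplasin receptor of the TNF receptor family, had 28.5, 26.7, 25.7 and 37.7 CPM in controls and 108.3, 112.7 and 107.5 CPM at 10 mg/kg/day, a log2 fold change of 1.88 ± 0.31. Its treated libraries were nearly equal. Sesn1, a sestrin that inhibits mTORC1 (1.99), Klf15, a transcription factor of amino acid breakdown (1.18), the lysosomal protease Ctsl (1.24) and the FOXO factors Foxo1 (1.20), Foxo3 (0.77) and Foxo4 (0.41) rose as log2 fold changes. The member that fell was Trim55 (MuRF2), a titin-binding relative of Trim63, by 0.53 on the log2 scale. Mstn, which encodes the growth inhibitor myostatin, was near its control level, with means of 87.4 ± 29.7 (SD, n = 4) and 90.3 ± 7.41 (SD, n = 3) CPM and an adjusted p of 0.96 by edgeR.

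Glucocorticoid receptor targets were described by a list that shares 5 members with the former. Of 21 tested, 11 were called higher and 1 lower, against 7.45% and 8.36% of all genes. The median log2 fold change was 1.18. Without control replicate 2, 7 were called higher. Glul, glutamine synthetase, had 289, 192, 289.7 and 292 CPM in controls and 972, 939 and 873 CPM at 10 mg/kg/day, a log2 fold change of 1.80 ± 0.37 (adjusted p = 0.0007, edgeR). Fkbp5, a chaperone partner of the glucocorticoid receptor and a standard reporter of its activity, had 57.8, 37.8, 42.1 and 40.3 CPM in controls and 153, 115 and 186 CPM at 10 mg/kg/day, a log2 fold change of 1.77 ± 0.40 (adjusted p = 0.0018, edgeR). Both were separated from controls in every library. Per1, a clock gene that the receptor also induces, rose by a log2 fold change of 1.41, and the phosphatase gene Dusp1 fell by 1.14. Tsc22d3 (GILZ), another standard target, was not called, with a log2 fold change of 0.14 ± 0.29 and an adjusted p of 0.81 by edgeR.

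Because the ubiquitin ligase genes moved together, the 250 bases before the gene start were searched on both strands for 4 motifs. They were the FOXO site GTAAACA, which reads TGTTTAC on the other strand, the glucocorticoid receptor hexamer AGAACA, which reads TGTTCT on the other strand, the STAT site TTCNNNGAA and the CArG box of serum response factor. The windows below come from RefSeq on GRCm38.p6 and run 5′ to 3′ on the gene's strand, with matches to the FOXO site and the hexamer in capitals. Trim63 is at chr4:134314870-134315119 on the plus strand and Eda2r at chrX:97377210-97377459 on the minus strand. Both are members that rose and whose windows hold the FOXO site, so they do not stand for the other members. Foxo6os is at chr4:120290883-120291132 on the plus strand and is the first-ranked fall with a window in the table used.
Trim63: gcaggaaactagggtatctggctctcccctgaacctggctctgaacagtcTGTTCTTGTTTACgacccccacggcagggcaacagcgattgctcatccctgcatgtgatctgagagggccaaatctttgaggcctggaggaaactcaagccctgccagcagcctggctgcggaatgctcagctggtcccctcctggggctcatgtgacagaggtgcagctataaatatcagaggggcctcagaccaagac
Eda2r: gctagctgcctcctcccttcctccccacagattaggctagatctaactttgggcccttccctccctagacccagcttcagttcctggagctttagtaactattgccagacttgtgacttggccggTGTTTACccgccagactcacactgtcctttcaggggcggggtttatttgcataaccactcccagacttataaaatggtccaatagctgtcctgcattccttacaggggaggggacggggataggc
Foxo6os: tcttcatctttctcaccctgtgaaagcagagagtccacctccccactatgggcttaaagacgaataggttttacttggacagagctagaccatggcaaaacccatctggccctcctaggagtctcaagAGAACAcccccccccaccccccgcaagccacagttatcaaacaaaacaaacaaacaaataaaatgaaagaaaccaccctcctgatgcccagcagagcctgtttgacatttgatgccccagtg

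In Trim63 the receptor hexamer began 200 bases before the start and the FOXO site followed it directly, at 194 bases. The Eda2r window held a FOXO site and the Foxo6os window held the hexamer, each near its middle. The window of Depp1, which overlaps an annotated transcript and is not printed, held no match, which says only that these letters are not in it. Shares below are of genes with a window outside chromosome 18, and a gene with several windows counted where any of them held the motif. The FOXO site was in 3.54% of all 27025 such genes and in 2.84% of those tested, in 3.33% of 902 called higher and in 1.89% of 950 called lower. Among the called-higher members of the atrophy and FOXO list with a window, 2 of 14 held it, and these were the printed Trim63 and Eda2r. The hexamer was in 18.2% of all such genes and in 13.2% of those tested, in 12% of genes called higher and in 13.9% of those called lower, and in 0 of 10 glucocorticoid targets called higher. The STAT site was in 8.13% of all such genes and 7.21% of those tested, in 6.54% of genes called higher and 6.42% of those called lower, and in 2 of 10 glucocorticoid targets called higher. The CArG box was in 1.62% of all such genes and 1.47% of those tested, in 1.88% of genes called higher and 2.32% of those called lower, Actc1 among the last. A match is a description of the sequence and not a site of binding.

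Many genes of cytosolic protein synthesis rose by small amounts. Of 149 ribosomal protein, translation factor and tRNA synthetase genes tested, 85 were called higher and 1 lower, with a median log2 fold change of 0.40, against 7.45% and 8.36% of all genes. Ribosomal protein genes counted 57 higher and 0 lower of 87, with a median of 0.43. Eef2, the elongation factor that moves the ribosome along the message, had 1663, 1624, 1637 and 1939 CPM in controls and 3018, 2658 and 2844 CPM at 10 mg/kg/day, a log2 fold change of 0.73 ± 0.10 (adjusted p = 2.5e-06, edgeR). Rps20, a small subunit protein, had 126, 143.4, 133 and 181.9 CPM in controls and 252, 251 and 234 CPM at 10 mg/kg/day. All treated libraries exceeded all controls in both genes. Ribosomal protein genes have many processed copies in the genome, so single members are uncertain.

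Translation factors counted 17 higher and 1 lower of 42, and cytosolic tRNA synthetases 11 higher and 0 lower of 20, or 7 higher without replicate 3 at 10 mg/kg/day. The fall was in Eif4e, which binds the message cap, with a log2 fold change of -0.61. Its inhibitor Eif4ebp1 had the largest rise of the list, with 38.7, 40.2, 50.4 and 48.7 CPM in controls and 148, 170.3 and 197 CPM at 10 mg/kg/day, a log2 fold change of 1.95 ± 0.30 (adjusted p = 2.3e-05, edgeR). Eif3f (0.78), a subunit of initiation factor 3, Eif4b (0.71), a helicase cofactor, and the valine tRNA synthetase Vars (0.98) also rose as log2 fold changes.

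Part of the protein breakdown genes rose too. Of 37 proteasome subunits, 12 were called higher and 1 lower, against 7.45% and 8.36% of all genes, with a median of 0.28, and without replicate 3 at 10 mg/kg/day 6 were called higher. Psmd8, a subunit of the proteasome lid, had 192, 206, 159.1 and 255 CPM in controls and 370.4, 364 and 417 CPM at 10 mg/kg/day, a log2 fold change of 0.92 ± 0.21. Autophagy and mitophagy genes counted 8 higher and 2 lower of 24, and 5 higher without replicate 1 at 10 mg/kg/day. Map1lc3b, the autophagosome membrane protein LC3B, had 193, 186, 189 and 188 CPM in controls and 365, 378 and 387 CPM at 10 mg/kg/day, a log2 fold change of 0.99 ± 0.16 (adjusted p = 2.4e-05, edgeR). Both groups were very narrow and widely apart. Bnip3, a mitophagy receptor, rose by 1.06, the receptor Sqstm1 by 0.70 and the lysosomal transcription factor Tfeb by 0.59, while the mitophagy receptor Fundc1 fell by 0.65 on the log2 scale. Lysosome genes counted 6 higher and 1 lower of 24, and 3 higher without replicate 2 or without replicate 3 at 10 mg/kg/day, with acid alpha-glucosidase Gaa at 0.81 and the cholesterol transporter Npc1 at 1.07.

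**Figure D3:**
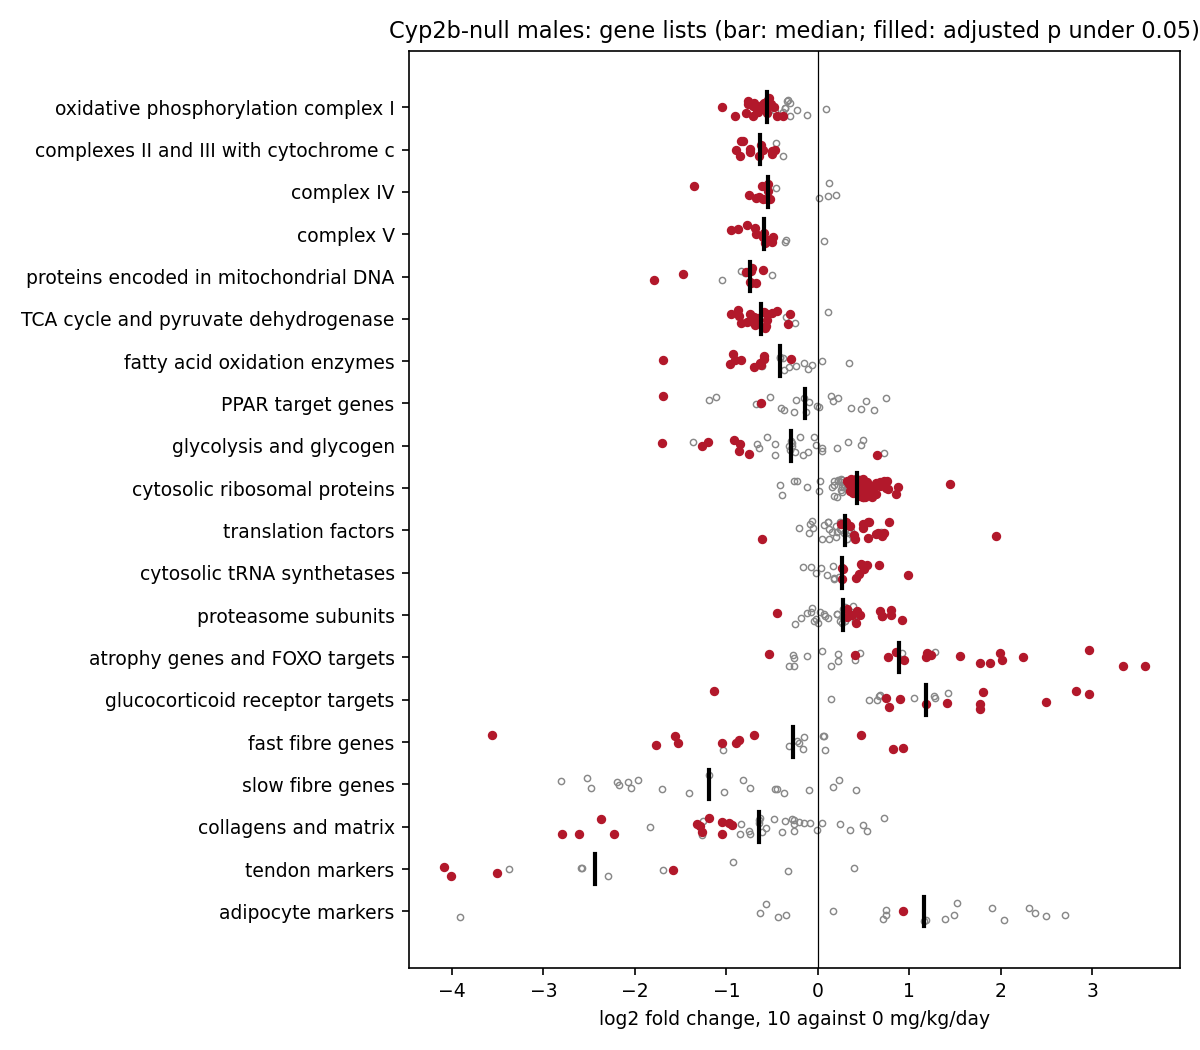
Log2 fold change of 10 against 0 mg/kg/day for every tested member of the lists named on the left, filled where called, with a bar at each list's median. Members of the respiratory complexes lie mostly left of 0 and those of the ribosome right of it, and no slow fibre gene is called.

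Most genes of the respiratory chain were lower. Of 93 genes of the 5 complexes tested, encoded in the nucleus or in mitochondrial DNA, 68 were called lower and 0 higher, against 8.36% and 7.45% of all genes. The median log2 fold change was -0.60, and 87 of the 93 had a negative value. Complex I counted 25 lower of 36, complex II, complex III and cytochrome c together 12 of 14, complex IV 10 of 15, complex V 12 of 15, and the proteins encoded in mitochondrial DNA 9 of 13. Without replicate 3 at 10 mg/kg/day complex I counted 13 lower, the complex II and III group 8, complex IV 4, complex V 6 and the mitochondrial DNA list 8. Without control replicate 3 complex I counted 18 and complex IV 6, and without replicate 1 at 10 mg/kg/day complex IV counted 6.

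Ndufs1, the largest subunit of complex I, had 371, 380.3, 462 and 372 CPM in controls and 194.6, 213 and 167.4 CPM at 10 mg/kg/day, a log2 fold change of -1.05 ± 0.15 (adjusted p = 6.8e-06, edgeR). mt-Co1, the catalytic subunit of complex IV encoded in mitochondrial DNA, had 40887, 34899.8, 43428 and 37572 CPM in controls and 23819, 24964 and 19619.9 CPM at 10 mg/kg/day. No treated library reached a control in either gene. mt-Co2, its copper-carrying partner, had 1429.8, 1394, 1613 and 1208 CPM in controls and 420.5, 394 and 408 CPM at 10 mg/kg/day. Its log2 fold change of -1.79 ± 0.33 was the most negative of the mitochondrial genome's called genes, and that of mt-Co1 was -0.78 ± 0.15. The share of all counts on the mitochondrial chromosome was 12.4, 10.2, 12.5 and 10.5% in controls and 7.58, 7.89 and 7.06% at 10 mg/kg/day.

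Enzymes that feed the chain were called lower too. TCA cycle and pyruvate dehydrogenase genes counted 21 lower and 0 higher of 24, against 8.36% and 7.45% of all genes, with a median of -0.62. Dlat, the E2 subunit of pyruvate dehydrogenase, had 229, 223, 277 and 222 CPM in controls and 121, 131.4 and 118.4 CPM at 10 mg/kg/day, a log2 fold change of -0.94 ± 0.14. Fatty acid oxidation enzymes counted 11 lower and 0 higher of 23, but 5 lower without replicate 3 and 7 without replicate 1 at 10 mg/kg/day, and 1 higher and 5 lower without control replicate 3. Decr1, an auxiliary enzyme of the oxidation of unsaturated fatty acids, had 91.5, 95.6, 162 and 87.1 CPM in controls and 62.0, 70.6 and 49.5 CPM at 10 mg/kg/day, with control replicate 3 far above the other controls.

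Some regulators of mitochondrial content were lower as well. Ppargc1a, the coactivator PGC-1-alpha, had 60.2, 46.3, 52.3 and 53.8 CPM in controls and 35.2, 33.4 and 17.9 CPM at 10 mg/kg/day, a log2 fold change of -0.89 ± 0.22 (adjusted p = 0.0038, edgeR). Its partner receptor Esrra fell by 0.96, its muscle-specific target Perm1 by 1.23 and the fission GTPase Dnm1l by 0.78 on the log2 scale. The list of biogenesis and dynamics genes held 11 lower and 3 higher of 24, against 8.36% and 7.45% of all genes. The higher ones were the transcription factor Nrf1 (0.52), the mitochondrial RNA polymerase Polrmt (0.51) and the DNA polymerase Polg (0.39). Mitochondrial ribosomal protein genes counted 22 lower and 1 higher of 77, with a median of -0.26. Without replicate 3 at 10 mg/kg/day the lower calls were 5 in the biogenesis list and 12 among mitochondrial ribosomal proteins.

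Slow fibres are rich in mitochondria, and slow fibre genes differed between libraries within the controls. Their summed level was 4759, 2358, 13981 and 4603 CPM in controls and 3368, 3428 and 2153 CPM at 10 mg/kg/day, so control replicate 3 held the most. Over the same libraries complex I genes summed to 4848, 5301, 6255 and 5509 CPM and then to 3922, 4055 and 3294 CPM, with no overlap. Myh7, the slow myosin heavy chain, had 246, 119.4, 1968 and 549.6 CPM in controls and 223, 178.7 and 123.3 CPM at 10 mg/kg/day, and 0 of 21 slow fibre genes were called, with a median log2 fold change of -1.19, or -0.44 without control replicate 3. Control replicate 3 was the highest in both sums, and control replicate 2, the lowest control in slow fibre genes, had a complex I sum of 5301 CPM. The part of slow fibre content in the respiratory falls was not tested.

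**Figure D4:**
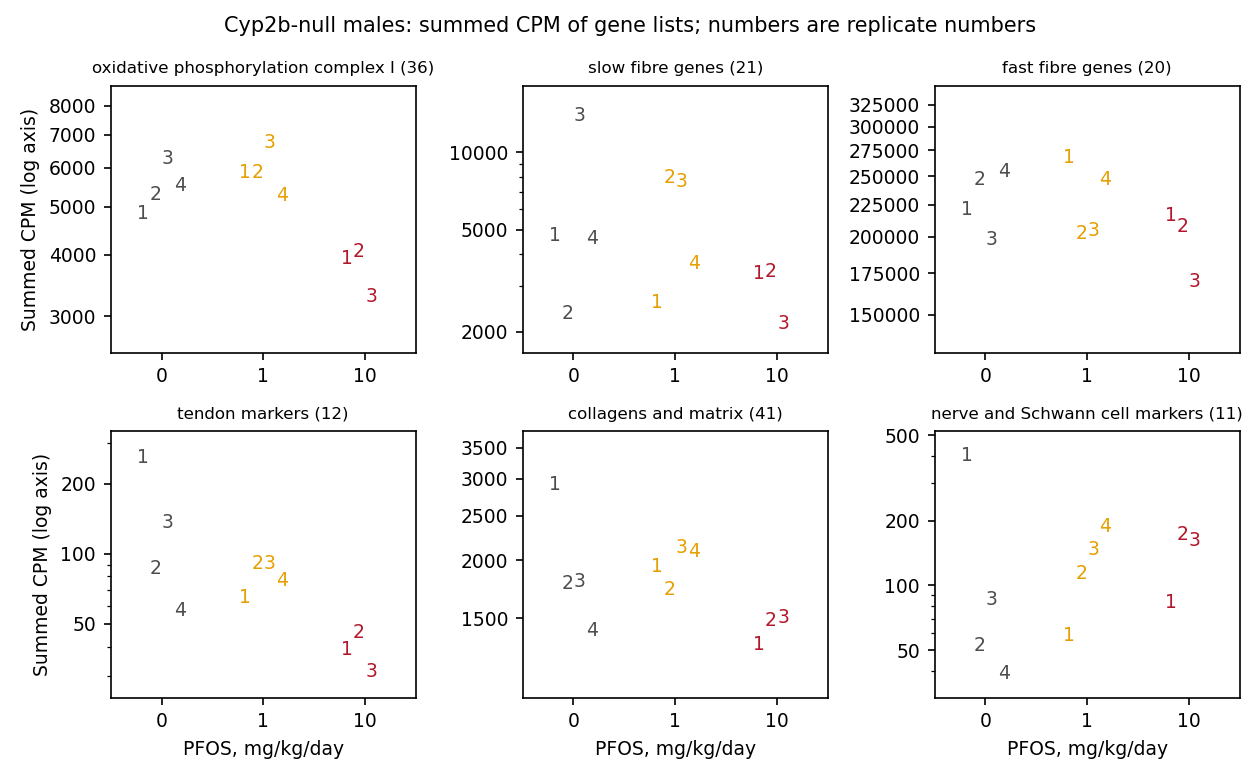
Summed CPM (log axes) of 6 gene lists in each Cyp2b-null male library at 0, 1 and 10 mg/kg/day, 1 panel per list, each library drawn as its replicate number. The complex I sums of the treated libraries lie between 3294 and 4055, under the controls at 4848 to 6255, while slow fibre sums overlap and control replicate 3 stands at 13981.

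Some genes of energy buffering fell as well, while classical PPAR targets mostly did not pass the test. Ckmt2, the mitochondrial creatine kinase, had 833, 718, 1307 and 694 CPM in controls and 272, 313 and 195.5 CPM at 10 mg/kg/day, a log2 fold change of -1.77 ± 0.30 (adjusted p = 6.7e-05, edgeR). Gamt, the last enzyme of creatine synthesis, had 9.45, 10.0, 7.69 and 11.0 CPM in controls and 1.71, 1.03 and 1.10 CPM at 10 mg/kg/day, a log2 fold change of -2.91 ± 0.45. Both were separate from controls in every library. Creatine and adenylate genes counted 5 lower and 0 higher of 12, against 8.36% and 7.45% of all genes. Adenylate kinase Ak1 (-1.002) was among the falls.

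Glycolysis and glycogen genes counted 7 lower and 1 higher of 32, against 8.36% and 7.45% of all genes. They counted 1 lower without replicate 3 at 10 mg/kg/day, and 3 lower without control replicate 2 or 4. The muscle phosphoglycerate mutase Pgam2 had 1369, 1614, 1327 and 1572 CPM in controls and 670.0, 653 and 514 CPM at 10 mg/kg/day, a log2 fold change of -1.26 ± 0.29. Of 24 PPAR target genes, 2 were called lower and 0 higher: the fatty acid-binding protein Fabp3 (-1.70) and the peroxisome factor Pex11a (-0.63). Fabp3 had 286, 208, 894 and 261 CPM in controls and 125.5, 158.2 and 97.9 CPM at 10 mg/kg/day, so control replicate 3 stood far above the other controls. Without that control the list counted 1 higher and 0 lower, with a median of 0.17, and without replicate 1 or replicate 3 at 10 mg/kg/day it had 0 calls. Pdk4, the pyruvate dehydrogenase kinase that rises on fasting, had 1324, 404, 2009 and 693 CPM in controls and 1087, 1091 and 336 CPM at 10 mg/kg/day. Its groups overlapped, with a log2 fold change of -0.40 ± 0.73 and an adjusted p of 0.78 by edgeR. The uncoupling protein Ucp3 (-1.11, adjusted p = 0.095), the lipase inhibitor Angptl4 (-0.68, adjusted p = 0.54) and the carnitine transferase Cpt1b (-0.24, adjusted p = 0.68) were not called either.

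Contractile genes of fast fibres moved in both directions. Of 20 tested, 8 were called lower and 3 higher, against 8.36% and 7.45% of all genes. The lower calls were 3 without replicate 3 at 10 mg/kg/day and 5 without control replicate 4. The list also holds Actc1, described above, which is an actin of heart and of developing muscle. Actn3, the alpha-actinin of fast Z-discs, had 11585, 14262, 10050.1 and 15165 CPM in controls and 25002, 22288 and 20600.1 CPM at 10 mg/kg/day, a log2 fold change of 0.83 ± 0.19 (adjusted p = 0.0016, edgeR). The essential light chain Myl1 had 8449.8, 10317, 7106 and 11519 CPM in controls and 3622, 3665 and 2467 CPM at 10 mg/kg/day, a log2 fold change of -1.52 ± 0.32 (adjusted p = 0.0008, edgeR). Both were separate from controls in every library, in opposite directions.

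The myosin kinase Mylk2 (0.93) and the calcium pump Atp2a1 (0.48) rose, and skeletal alpha-actin Acta1 (-0.86) fell, as log2 fold changes. Myh4, the main fast myosin heavy chain, had 60173, 76253, 54097 and 73613 CPM in controls and 58694, 55814 and 44632 CPM at 10 mg/kg/day, with overlapping groups and an adjusted p of 0.29 by edgeR. Myh1 (0.06) and Myh2 (-1.04), the other fast myosins, were not called, with adjusted p of 0.96 and 0.46 by edgeR. Casq1, the calcium store of the fast sarcoplasmic reticulum, had 2262, 2617, 2022 and 2802 CPM in controls and 849, 771 and 522 CPM at 10 mg/kg/day, a log2 fold change of -1.76 ± 0.31. Calcium handling genes counted 7 lower and 2 higher of 24, against 8.36% and 7.45% of all genes. The falls included the calmodulin gene Calm2 (-1.21) and the junctional protein Jph2 (-1.05). Without replicate 1 at 10 mg/kg/day 0 were called higher.

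Polyamine enzyme genes moved in both directions, with 4 called lower and 2 higher of 12, against 8.36% and 7.45% of all genes. Without replicate 3 at 10 mg/kg/day 1 was called higher. Amd1, S-adenosylmethionine decarboxylase, had 1605, 2776, 1126 and 2416 CPM in controls and 456, 312 and 323 CPM at 10 mg/kg/day, a log2 fold change of -2.44 ± 0.34 (adjusted p = 4.8e-06, edgeR). Its near-copy Amd2 (-2.36) and the pseudogene Amd-ps4 (-2.59) fell by like amounts, and reads of such copies can be shared between them. Smox, spermine oxidase, fell by 1.76 and the spermidine synthase gene Srm rose by a log2 fold change of 1.02.

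Insulin signalling genes counted 7 higher and 2 lower of 26, against 7.45% and 8.36% of all genes, with a median of 0.35. Akt1, a central kinase of the pathway, had 56.3, 50.6, 59.7 and 66.6 CPM in controls and 115, 124.5 and 151 CPM at 10 mg/kg/day, a log2 fold change of 1.16 ± 0.22 (adjusted p = 0.00028, edgeR). The kinase Akt2 (0.57), Tbc1d4 (1.15), which gates glucose transporter movement, and the receptor Igf1r (0.83) also rose. The falls were Grb14, an inhibitor of the insulin receptor, with 16.8, 9.21, 26.2 and 12.4 CPM in controls and 2.89, 3.28 and 1.93 CPM at 10 mg/kg/day, and the growth factor-binding protein Igfbp5 (-2.21). Every treated library was below every control in Grb14.

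Stress and defence lists had mixed calls. Of all genes, 7.45% were called higher and 8.36% lower. Integrated stress response genes counted 7 higher, among them Ppp1r15a (1.09), a phosphatase subunit that ends the response, and 1 lower of 28. Antioxidant genes counted 6 higher and 4 lower of 30: Gpx3, a secreted glutathione peroxidase, had 211, 150.4, 169 and 126 CPM in controls and 468, 773 and 592 CPM at 10 mg/kg/day. The glutathione transferase Gstm2 (1.35) rose with it, while its relative Gsta4 (-1.28) and the mitochondrial superoxide dismutase Sod2 (-0.73) fell. Xenobiotic genes counted 4 higher and 1 lower of 10, with the drug efflux pump Abcb1b at a log2 fold change of 1.55 ± 0.23, the cytochrome P450 Cyp1b1 at 2.69 ± 0.73 and the P450 reductase Por at 0.90 ± 0.25. Without replicate 3 at 10 mg/kg/day 3 antioxidant and 1 xenobiotic gene were called higher, and without replicate 1 at 10 mg/kg/day 4 stress response genes were.

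Muscle-secreted factors counted 6 lower and 0 higher of 16, against 8.36% and 7.45% of all genes, led by Ostn and including Fndc5 (-1.30), the precursor of irisin, and Dkk3 (-2.08), a Wnt pathway modulator. Genes of the neuromuscular junction and of denervation counted 2 higher and 3 lower of 24. Ache, acetylcholinesterase, had 44.0, 44.4, 36.5 and 40.2 CPM in controls and 24.1, 21.6 and 18.4 CPM at 10 mg/kg/day, and the receptor subunit Chrne had 24.2, 28.6, 24.1 and 25.7 CPM against 14.6, 12.6 and 15.6 CPM. Both fell without overlap, while another receptor subunit, Chrnb1, rose by a log2 fold change of 0.86. Myogenic genes counted 2 higher and 4 lower of 19: the satellite cell factor Pax7 (-1.22) and the calcitonin receptor Calcr (-2.04) of quiescent satellite cells fell, and the cadherin Cdh15 (1.03) of the same cells rose. Sarcomere structure genes counted 4 higher and 4 lower of 26. Without replicate 3 at 10 mg/kg/day the lower calls were 4 secreted factors, 1 junction gene, 1 myogenic gene and 1 sarcomere gene.

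Lipid, chaperone and clock lists had calls in both directions. The share called was 9.09% for fatty acid synthesis, 17.4% for cholesterol, 15.4% for endoplasmic reticulum chaperones and 19% for cytosolic heat shock genes. It was 31.6% for clock genes and 35.3% for branched-chain amino acid breakdown, against 15.8% of all genes. Fatty acid synthesis genes counted 1 higher, the carboxylase Acacb (0.66), and 1 lower, the acyltransferase Gpam (-0.92), of 22. Cholesterol genes counted 1 higher and 3 lower of 23, among them the last enzyme of synthesis, Dhcr7 (-1.03). Endoplasmic reticulum chaperones counted 3 higher and 1 lower of 26, with the stress sensor Ern1 (0.57) and its target Xbp1 (0.47) higher. Cytosolic heat shock genes counted 2 higher, the factor Hsf1 (0.47) and the chaperone Hsp90ab1 (0.46), and 2 lower of 21, the small heat shock proteins Hspb2 (-0.63) and Hspb8 (-0.47). Clock genes counted 4 higher and 2 lower of 19, with the repressor Cry2 (0.96) higher and the repressor Bhlhe41 (-1.27) lower. Of 17 genes of branched-chain amino acid breakdown, 2 were called higher and 4 lower, with the dehydrogenase subunit Bckdhb at 0.59 and its inhibitory kinase Bckdk at -0.41. With 1 library left out at a time, 1 to 3 cholesterol genes and 1 to 4 branched-chain genes were called lower, and 1 to 3 endoplasmic reticulum chaperones and 2 to 4 clock genes higher.

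Part of the extracellular matrix genes were lower. Collagens and matrix genes counted 12 lower and 0 higher of 41, against 8.36% and 7.45% of all genes, with a median of -0.64. All 14 collagen genes of that list had negative values, 8 of them called, and collagens outside the list were not counted. Col3a1, a fibrillar collagen of muscle connective tissue, had 194, 109.9, 93.8 and 83.6 CPM in controls and 12.02, 18.5 and 21.1 CPM at 10 mg/kg/day, a log2 fold change of -2.80 ± 0.46 (adjusted p = 5.1e-05, edgeR). Col15a1, a basement membrane collagen, had 37.1, 23.8, 25.1 and 21.6 CPM in controls and 5.19, 7.11 and 4.97 CPM at 10 mg/kg/day. No treated library reached a control in either gene. Control replicate 1 was the highest in both, and Col1a1 had 169 CPM there against 49.0, 57.2 and 35.9 CPM in the other controls. Without control replicate 1, 7 members of the list were called lower, and without replicate 1 at 10 mg/kg/day 6 were.

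Genes of tissues beside the fibres varied between libraries. Tendon genes summed to 259, 86.7, 136.8 and 57.4 CPM in controls and 39.0, 45.9 and 31.3 CPM at 10 mg/kg/day, with 4 of 12 called lower. In the list 0 were called without control replicate 1 and without either replicate 1 or replicate 3 at 10 mg/kg/day, 1 without replicate 2 at 10 mg/kg/day and 2 without control replicate 3. The 4 were Tnmd (-3.50), the tendon membrane protein tenomodulin, the matrix proteins Chad (-4.08) and Thbs4 (-1.58), and the collagen Col11a1 (-4.01), as log2 fold changes. Nerve genes summed to 401 CPM in that same control and to between 39.0 and 85.9 CPM in the other controls, with 83.6 to 173 CPM at 10 mg/kg/day and 0 of 11 called. How far tendon or nerve in control replicate 1 has a part in the collagen falls was not tested. Adipocyte genes summed to between 2346 and 3110 CPM in controls and to 2575, 2759 and 3566 CPM at 10 mg/kg/day. Of 21 tested, 1 was called higher and 0 lower, while 16 log2 fold changes were positive and 5 negative, with a median of 1.16. The libraries at 10 mg/kg/day lay wholly above the controls in 5 of these genes and wholly below them in 1. Of all genes, 14.3% lay wholly above and 13.9% wholly below. The called share was 4.76% of the adipocyte genes against 15.8% of all genes. Without replicate 3 at 10 mg/kg/day the median was 0.45 and 0 were called. The adipocyte hormone gene Adipoq had 16.2, 8.04, 5.77 and 2.12 CPM in controls and 14.4, 17.2 and 67.4 CPM at 10 mg/kg/day, with overlapping groups and an adjusted p of 0.21 by edgeR. Fasn, fatty acid synthase, had 188 CPM in replicate 3 at 10 mg/kg/day against 44.7 and 52.2 CPM in the other treated libraries, with an adjusted p of 0.17 by edgeR. Aplnr, the receptor of the peptide apelin on endothelium, fell by 2.18 and its ligand Apln by 2.06 on the log2 scale. Of the 17 endothelial genes, which include Aplnr with the lowest log2 fold change, 1 was called. Macrophage genes had 0 of 12 called and lymphocyte genes 0 of 13.

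The effect of 10 mg/kg/day was also called in the other 3 groups of mice, which share no library with the Cyp2b-null males. In hCYP2B6-Tg males 2882 genes were called, 1377 of them also in Cyp2b-null males with the same sign and 1 with the opposite sign. In Cyp2b-null females 1979 were called, with 885 and 5, and in hCYP2B6-Tg females 4309, with 1692 and 1. In all 4 groups 633 genes were called with the same sign, and 438 were called in Cyp2b-null males alone. None of these 438 passed the test of the difference from the mean of the other 3 groups, so they are not shown to be particular to Cyp2b-null males.

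The difference of the effect between the genotypes in males was called for 0 genes, or 0%, with 1160 at an unadjusted p under 0.05 by edgeR, 1 called by DESeq2 and 5 by limma voom. The difference from the mean of the other 3 groups was likewise called for 0 genes (0%) by edgeR, with 1150 at an unadjusted p under 0.05, 1 by DESeq2 and 169 by limma voom. Against Cyp2b-null females, 14 genes (0.0898%) were called, all with a more positive effect in the males. DESeq2 called 90 and limma voom 413, and 3 were called with the replicate number as a block. Leaving out 1 of the compared Cyp2b-null male libraries gave counts from 4 without control replicate 1 to 26 without control replicate 3. No female library was left out.

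Depp1 had a log2 fold change of 3.58 in Cyp2b-null males and -0.55 in Cyp2b-null females, a difference of 4.13 ± 0.82 (adjusted p = 0.024, edgeR). Arhgap26 had 3.07 and 0.58, a difference of 2.50 ± 0.37 (adjusted p = 0.00049, edgeR). Fbxo32 had 1.56 and -0.84, a difference of 2.40 ± 0.52 (adjusted p = 0.0497, edgeR). In Eef2 the values were 0.73 and -0.04, and the difference was 0.76 ± 0.13 (adjusted p = 0.0082, edgeR). The muscle protein gene Klhl38 (difference 2.29), the transcription factor Jun (1.20), the receptor chain Il6st (0.72) that Il6ra signals through, and the lysosomal protease Ctsf (0.97) were among the others, as were Gm15943 (3.06), Cyp4f17 (1.82), Llgl2 (1.12), Cep131 (1.10), Syne1 (1.09) and Pex6 (0.84). Gm15943 is antisense to Klhl38, shares 65.4% of that gene's exonic bases and overlaps Fbxo32 too, so these 3 are not independent if counting ignored strand.

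The effect was negative in Cyp2b-null females in 10 of the 14 and called lower there in 2, Klhl38 and Ctsf. It was positive in hCYP2B6-Tg males in 14 and called higher in 9, and in hCYP2B6-Tg females it was positive in 13 and called higher in 12. Trim63 and Ddit4, with log2 fold changes of 2.01 and 2.97 in Cyp2b-null males and -0.66 and -0.78 in Cyp2b-null females, did not pass the test of the difference, each with an adjusted p of 0.068 by edgeR.

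**Figure D5:**
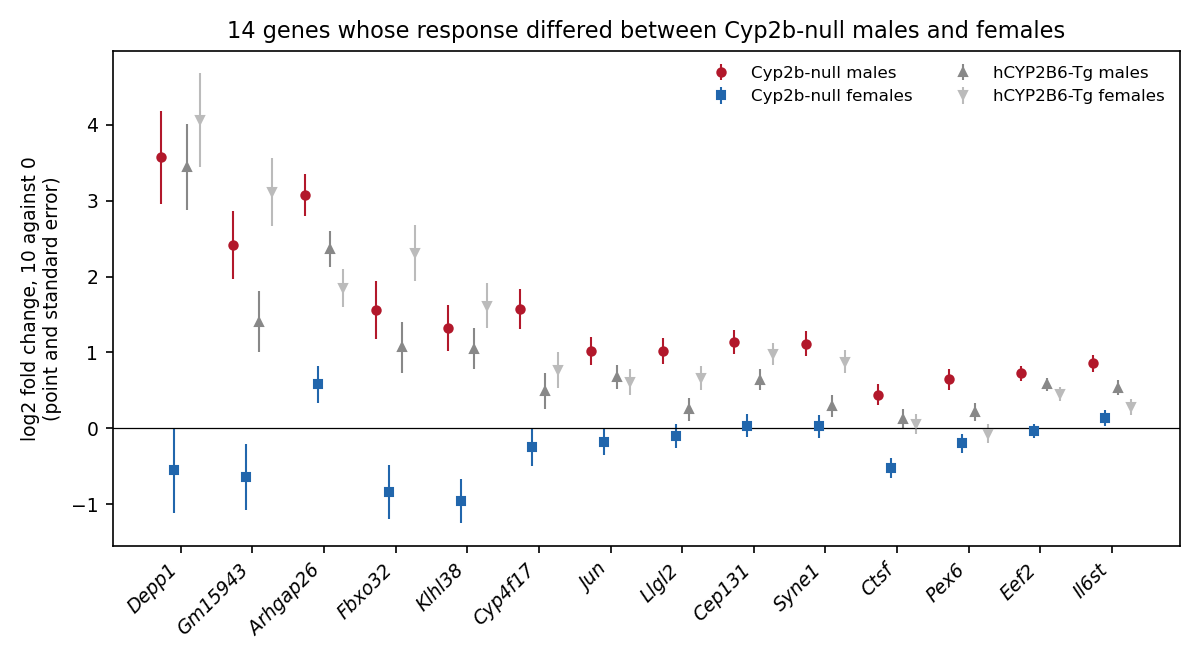
Log2 fold change of 10 against 0 mg/kg/day, with its standard error, in Cyp2b-null males, Cyp2b-null females and the 2 hCYP2B6-Tg groups for the 14 genes whose effect differed between Cyp2b-null males and females. The Cyp2b-null female points lie below the male points in all 14 genes.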

How the data were processed

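Gene counts of 48 gastrocnemius RNA-seq libraries were used as the authors deposited them, unnormalised whole numbers for 54532 genes, of which 19222 were at 0 throughout. Per the submitters' processing notes, reads were mapped with HISAT2 and the build is GRCm39, while 96.2% of tested genes had the coordinates of a GENCODE annotation of GRCm38. The counting tool is not given in the sources used here, nor is its strand setting. Libraries were grouped by genotype, sex and dose from their labels. All 48 entered 1 edgeR 4.0.16 fit (R 4.3.3) with a coefficient for each of the 12 groups, after filterByExpr with a minimum count of 10 and a minimum total of 15, leaving 15583 genes, with TMM factors and 36 residual degrees of freedom. The quasi-likelihood test gave p-values, adjusted by the Benjamini-Hochberg method, and the standard error was taken from the test statistic. The biological coefficient of variation was 23.5%. Replicate numbers in the labels were checked for pairing by the correlation of deviations from group means, and did not pair the samples. No replicate pair was a duplicate, with a lowest chi-square of 7.85 per degree of freedom. The script for the tests was checked on simulated counts.

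Named genes were the 15 largest rises and 15 largest falls among called genes with a mean log2 CPM of at least 1, groups not overlapping and a proper symbol, up to 4 called members of each of 56 lists with the smallest p, up to 5 each way in each difference, and a fixed set of marker genes. Other genes named were chosen after their values were seen, as examples of the counts. Of 205 named genes in the annotation, 46 share exonic bases with another tested gene, and 4 share over 20%, which matters if counting ignored strand. The members, lists and rule were chosen with earlier results of these data known. Lists are described by counts and medians, without a set test. Alternatives were DESeq2 1.42.0, limma 3.58.1 voom with sample weights, other scaling and filters, a replicate block, only the compared libraries, and leaving out each replicate. Promoters are the 250 bases before the start in RefSeq on GRCm38.p6. 1 gene that the naming rule selects is not reported here.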

Additional observations from a re-analysis of the deposited data

Results flagged for a closer look

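In the 4 controls, 19 of 215 values examined (8.84%) had 1 library far from the other 3 by Dixon's criterion. The criterion marks about 1 in 20 of independent, normally distributed values. The values here are of selected genes in the same libraries, so their share cannot be set against that rate. Control replicate 3 was that library in 11 of the 19. It was the highest for the respiratory genes Ndufs1 (462 CPM) and Uqcrc2 (444 CPM), for Dlat of pyruvate dehydrogenase (277 CPM), for the fatty acid genes Decr1 (162 CPM), Fabp3 (894 CPM) and Pex11a (24.1 CPM), and for the fission gene Dnm1l (92.6 CPM). It was the lowest for the lysosomal glucosidase Gaa (249 CPM), the tRNA synthetase Vars (37.9 CPM), the heat shock factor Hsf1 (34.7 CPM) and the chaperone Hsp90ab1 (992 CPM). The same library had the largest slow fibre sum, 13981 CPM against 2358 to 4759 CPM in the other controls, and the part of that in these values was not tested.

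Control replicate 1 was the highest for Col1a1 (169 CPM), Klhl38 (31.1 CPM), the summed nerve genes (401 CPM) and the X-inactivation RNA Xist (0.190 CPM, from 3 counts). Control replicate 2 was the highest for Kcng4 (48.01 CPM) and Alb (16.4 CPM) and the lowest for Glul (192 CPM), and control replicate 4 the highest for Eef2 (1939 CPM).

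The effect of 10 mg/kg/day differed between Cyp2b-null males and females for 14 genes in the test of that difference, with the log2 fold change in males minus that in females as the value. It was 4.13 for Depp1, 3.06 for Gm15943, 2.50 for Arhgap26, 2.40 for Fbxo32, 2.29 for Klhl38, 1.82 for Cyp4f17 and 1.20 for Jun. It was 1.12 for Llgl2, 1.10 for Cep131, 1.09 for Syne1, 0.97 for Ctsf, 0.84 for Pex6, 0.76 for Eef2 and 0.72 for Il6st.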

How the results depend on the processing

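Of the 191 named genes that were called, 140 were called at all 16 alternative settings, none changed sign at any, and 42 lost the call without replicate 3 at 10 mg/kg/day. Of genes called at 10 against 0 mg/kg/day, limma voom gave 4133 in all, 2085 higher and 2048 lower, and library totals without TMM factors gave 2007 higher. Leaving out 1 replicate at a time gave 1400 to 2152 in all, 728 to 1021 higher and 672 to 1209 lower. The difference from hCYP2B6-Tg males was called for 1 gene by DESeq2 and 5 by voom, and that from the mean of the other 3 groups for 1 and 169. The 14 genes of the difference from Cyp2b-null females became 43 without TMM factors and 27 with no filter. They became 37 with library sizes that leave out mitochondrial and the 20 most abundant genes. With at least 1 CPM in 16 libraries they were 26, with only the compared libraries 60, by DESeq2 90 and by voom 413. No female replicate was left out, and without 1 Cyp2b-null male replicate the count was 4 to 26. With the replicate number as a replicate block that count was 3, and 2248 genes were called at 10 against 0 mg/kg/day; the correlations of same-numbered libraries' deviations were -0.24, -0.0040 and 0.018, so the numbers are not shown to pair the samples. The median of the lymphocyte list, with 0 of 13 genes called, was 1.91, became -0.51 with the CPM filter, and -0.16 to 2.45 without 1 replicate. The cause of each of these changes was not tested. The smallest groups hold 3 libraries, which limits low genes most.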

Other observations

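Several strong responses lie outside the lists and were chosen after their values were seen. Tfrc, the transferrin receptor that brings iron into cells, had 169, 172, 149 and 246 CPM in controls and 44.0, 47.3 and 30.1 CPM at 10 mg/kg/day, a log2 fold change of -2.19 ± 0.38 (SE, adjusted p = 0.0001, edgeR). Trp53inp2, a nuclear and autophagosomal protein of muscle, had 491, 444, 473 and 458 CPM in controls and 155, 146 and 118.9 CPM at 10 mg/kg/day, a log2 fold change of -1.74 ± 0.21 (adjusted p = 2.2e-07, edgeR). The phosphatase gene Ptp4a3 had 820.0, 825, 1119 and 916 CPM in controls and 2226, 2424 and 1913 CPM at 10 mg/kg/day, a log2 fold change of 1.25 ± 0.13 (adjusted p = 5e-08, edgeR). Each of these had groups that did not overlap.

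Gm10925 and Gm28437, copies of mitochondrial sequence on chromosome 1, fell by 1.78 and 2.16 on the log2 scale beside mt-Co1 and the other mitochondrial genes. Reads of the mitochondrial genome may be counted on such copies, which was not tested. Of the 2463 called genes, 196 have no symbol beyond a clone or model name, 47 are long intergenic RNAs and 56 are processed pseudogenes.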
